A study of Homo sapiens with 10 samples.

Results

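The Kruppel-like factors (KLF) described here are 9 protein-coding genes, KLF2, KLF3, KLF4, KLF6, KLF9, KLF10, KLF11, KLF13 and KLF16, taken by gene symbol from the deposited expression tables of NB4 cells. They are 9 of the 18 protein-coding KLF genes and of 60603 rows in the tables, and the rule used symbols, not measured values. All 9 had an adjusted p in every comparison, so none was lost to the filter on low values. Of the other 9 KLF genes, 8 had a base mean, which is the mean normalised read count over the libraries of an experiment, of under 50 in both experiments.

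KLF proteins are zinc-finger transcription factors. The zinc fingers at the C-terminal end are alike across the family and bind GC-rich and CACCC-type elements, whereas the N-terminal part differs and recruits either coactivators or corepressors. In the myeloid lineage KLF4 is known as a factor of monocyte differentiation, KLF2 as a brake on monocyte activation, and KLF6 as a regulator of macrophage polarisation. KLF3 is a repressor that binds CtBP proteins, KLF10 and KLF11 were described as TGF-beta-inducible genes that recruit SIN3A, and KLF9, KLF13 and KLF16 form the basic transcription element binding group.

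NB4 is an established acute promyelocytic leukemia line, and both experiments rest on this line alone. In the knockdown, cells carried the lentiviral vector pLKO.1 puro either empty (EV) or with a short hairpin RNA against GSE1 (shA1 or shB2), and RNA was collected 48 h after transduction. GSE1 is a subunit of histone deacetylase corepressor complexes that also hold the demethylase LSD1, encoded by KDM1A. The control vector held no hairpin, so carrying a hairpin and losing GSE1 cannot be told apart. This holds also where both hairpins agree, as both are compared with the same EV libraries. In the other experiment, cells received DMSO or 2 µM MC2580, an LSD1 inhibitor, for 24 h. Each of the 5 groups had 2 libraries, 10 in all. Each experiment asked which genes move when the corepressor is depleted or its enzyme inhibited.

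GSE1 mRNA was lower with both hairpins, by a log2 fold change of -0.77 ± 0.13 (SE, adjusted p = 2.47e-07) under shA1 and -0.79 ± 0.14 (adjusted p = 7.66e-08) under shB2. Its log2 fold change after MC2580 was 0.07 ± 0.20, and that of KDM1A lay between -0.05 and 0.03 in the 3 comparisons. These are mRNA values and do not measure protein. The authors report less GSE1 protein after MC2580 without a significant change of its transcript, and less GSE1 protein with both hairpins. Base means summed to 40543130 in the knockdown and to 41201112 in the MC2580 experiment. Of 6 promyelocyte genes, 5 were abundant, from 723 for AZU1 to 506765 for MPO in the knockdown, while ELANE had a base mean of only 1.10 there and of 3.87 in the MC2580 experiment. Genes of other lineages were at base means of 0 to 11.7 in the knockdown for the erythroid list, at 0.217 to 121 for the B-cell list, and at 1.55 to 866 for the T-cell list, the last value being CD3D. These markers moved too: 2 of the 6 promyelocyte genes were called lower with each hairpin and none after MC2580. Over all tested genes, 0.786% were called lower with shA1, 2.91% with shB2 and 0.0162% after MC2580. PRTN3, a granule protease, fell by 1.48 on the log2 scale with shA1 and by 1.57 with shB2. CTSG, another granule protease, fell by 1.74 with shA1 (adjusted p = 2.33e-08), and AZU1 fell by 1.08 with shB2 (adjusted p = 1.33e-06). CTSG gave -0.33 ± 0.28 with shB2 and AZU1 gave -0.93 ± 0.20 with shA1. MPO gave -0.73 ± 0.08 with shA1 and -0.92 ± 0.08 with shB2. CD33, on the same list, went the other way, at 0.26 ± 0.11 with shA1 and 0.43 ± 0.11 with shB2. With shB2 3 lymphoid genes were called: CD3D fell by 1.29, while CD2 rose by 5.91 ± 1.71 at a base mean of 13.1 and CD22 by 3.15 ± 0.77 at one of 38.2. No erythroid gene was called. The share of all tested genes called higher with shB2 was 5.58%. In bulk RNA, a change in the share of cells that express a gene and a change in RNA per cell cannot be told apart.

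The promoters of KLF2, KLF4 and KLF6 are shown because these members rose with both hairpins. The sequences are the 250 bases before the RefSeq start site (GRCh38.p14), 5′ to 3′ on the strand of the gene, without the 72 bases of KLF6 that lie in an exon of a longer GENCODE transcript. Capitals mark matches, on either strand, to a GC box (GGGCGG), a MEF2 site (CTA and TAG with any 4 bases between), an E-box (CACGTG) or an ETS core (GGAAGT).
KLF2, chr19:16324576-16324825, plus strand: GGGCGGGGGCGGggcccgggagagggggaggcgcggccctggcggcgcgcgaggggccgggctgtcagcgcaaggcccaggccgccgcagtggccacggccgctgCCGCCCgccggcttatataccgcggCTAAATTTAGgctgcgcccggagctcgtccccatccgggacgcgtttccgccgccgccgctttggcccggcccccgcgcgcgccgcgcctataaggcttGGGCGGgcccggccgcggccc
KLF4, chr9:107489770-107490019, minus strand: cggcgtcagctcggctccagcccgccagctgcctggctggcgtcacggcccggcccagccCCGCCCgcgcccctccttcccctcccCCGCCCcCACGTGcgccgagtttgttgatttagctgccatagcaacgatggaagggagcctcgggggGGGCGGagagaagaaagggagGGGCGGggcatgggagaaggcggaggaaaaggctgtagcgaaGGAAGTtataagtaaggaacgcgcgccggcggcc
KLF6, chr10:3785282-3785459, minus strand: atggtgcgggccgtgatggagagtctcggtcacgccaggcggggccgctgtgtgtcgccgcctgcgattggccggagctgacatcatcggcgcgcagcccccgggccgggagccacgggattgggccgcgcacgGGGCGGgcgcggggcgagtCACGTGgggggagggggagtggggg

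The KLF2 window held 4 GC boxes, of which a pair lies side by side at its 5′ end, and 1 MEF2 site that begins 120 bases before the start site. The KLF4 window held 4 GC boxes, an E-box 157 bases and an ETS core 34 bases before the start site. The full KLF6 window held GC boxes at 116 and 61 bases, an E-box at 97 bases and an ETS core at 24 bases, the last of these matches and the nearer GC box lying in the part not printed. Thus the KLF4 and KLF6 windows both held an E-box and an ETS core, and the KLF2 window neither. Such matches were not particular to these members. A KLF11 window also held an E-box and an ETS core, and another KLF11 window held a MEF2 site. The KLF16 window held 7 GC boxes, the KLF13 window 3 and the KLF9 window 0. No window of KLF3 or KLF10 was used, so 7 members were searched. Of 35116 promoter windows of the same length, 42.6% held the GC box, 2.36% the MEF2 site, 6.34% the E-box and 19.5% the ETS core. No match to a CRE (TGACGTCA), which 1.65% of windows held, to a CACCC box (CACCC, 54.7%) or to the GFI1 core (AATCAC, 9.02%) was present in the windows of KLF2, KLF4 and KLF6. All 3 windows were rich in G and C, at 80.0% for KLF2, 69.2% for KLF4 and 76.4% for the part of KLF6 shown, against a median of 58% over all windows. These matches are descriptions of the letters in the windows.

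Genes were called changed at an adjusted p under 0.01 and an absolute log2 fold change over 1. With shA1, 3 of the 9 members rose (KLF2, KLF4 and KLF6) and none fell. Among all genes tested in that comparison, 4.32% were called higher and 0.786% lower. With shB2, 4 of 9 rose, KLF11 in addition to the same 3, and none fell, against 5.58% of all genes called higher and 2.91% lower. After MC2580, 1 of 9 rose, KLF4, and none fell, against 0.587% higher and 0.0162% lower among all genes. The median log2 fold change of the members was 0.63 with shA1, 0.41 with shB2 and 0.20 after MC2580, and that of all tested genes was 0.00 in each comparison. Both hairpin comparisons use the same EV libraries and are not independent of each other.

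**Figure D1:**
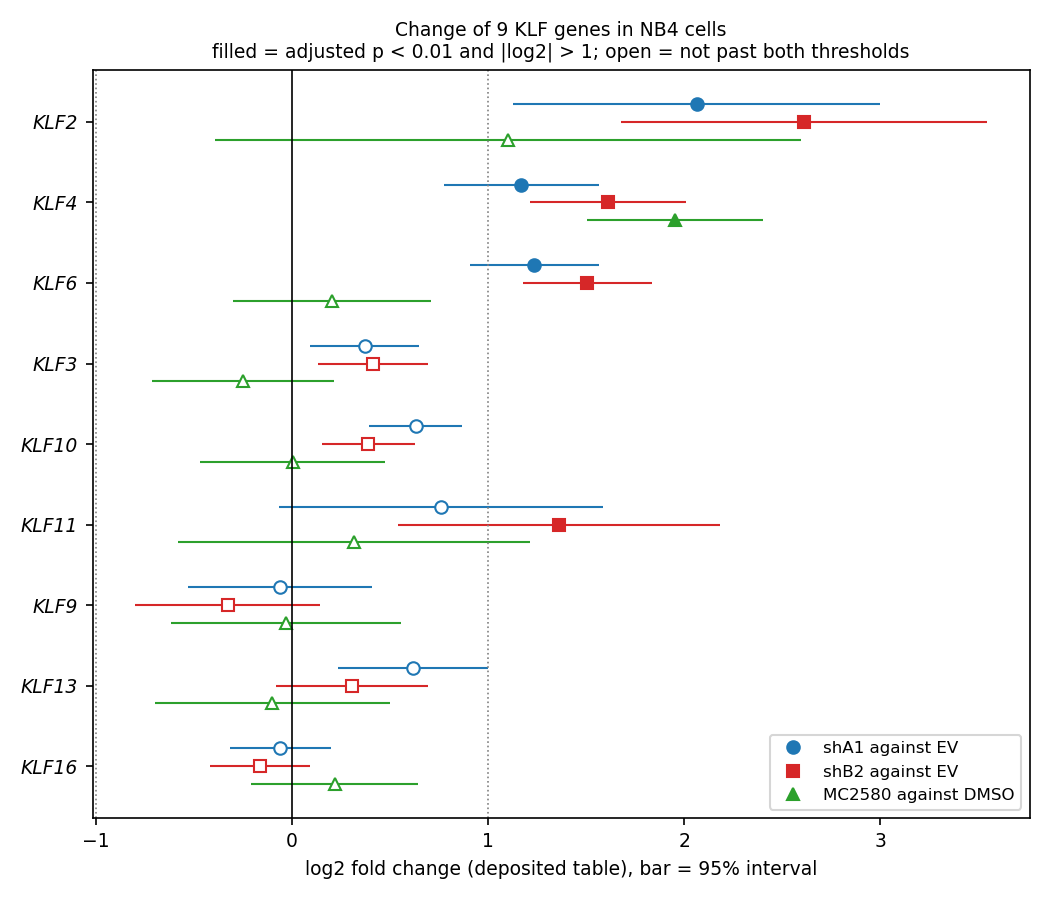
Log2 fold change of each member (points) with its 95% interval (bars) in the shA1, shB2 and MC2580 comparisons with their controls, 2 libraries per group. Filled points passed both thresholds: KLF2, KLF4 and KLF6 with both hairpins, KLF11 with shB2, and KLF4 after MC2580.

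KLF4 (ENSG00000136826.15, chr9:107484852-107490482, minus strand) was the only member called in all 3 comparisons, which 45 genes in all were. The base means and fold changes imply 313 normalised counts in EV, 704 in shA1 and 956 in shB2, and 300.0 in DMSO and 1161 after MC2580. Its level was therefore lowest in each control group and highest after MC2580, although the experiments were normalised separately. The log2 fold change was 1.17 ± 0.20 with shA1 (adjusted p = 1.64e-07), a 2.25-fold rise with a 95% interval of 1.71 to 2.96. With shB2 it was 1.61 ± 0.20 (adjusted p = 4.61e-14), or 3.05-fold. After MC2580 it reached 1.95 ± 0.23 (adjusted p = 4.87e-14), or 3.87-fold with an interval of 2.83 to 5.28, rank 344 from the highest among 18554 tested genes. An antisense long noncoding RNA, for which no base mean was available, overlaps KLF4. The libraries did not mark strand, so reads from any stretch that both genes share cannot be told apart.

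KLF2 (ENSG00000127528.5, chr19:16324826-16328685, plus strand) had the largest fold change of the members with either hairpin, from the lowest level. Implied normalised counts were 21.4 in EV, 89.6 in shA1 and 131 in shB2, and 20.8 in DMSO and 44.7 after MC2580. The log2 fold change was 2.06 ± 0.48 with shA1 (adjusted p = 0.00015), or 4.18-fold with an interval of 2.19 to 7.98. With shB2 it was 2.61 ± 0.48 (adjusted p = 4.60e-07), or 6.11-fold with an interval of 3.20 to 11.7. After MC2580 the estimate was 1.10 ± 0.76, which did not pass the test (adjusted p = 1.00). Its 95% interval ran from -0.39 to 2.60 on the log2 scale and holds both no change and the estimate with shA1. At this standard error only a log2 fold change of about 3.02 or more would have passed, since KLF2 had a base mean of 32.8 in the MC2580 experiment.

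KLF6 (ENSG00000067082.15, chr10:3775996-3785281, minus strand) rose with the hairpins and showed no such change after MC2580. Implied normalised counts were 936 in EV, 2202 in shA1 and 2657 in shB2, and 765 in DMSO and 881 after MC2580. The log2 fold change was 1.23 ± 0.17 with shA1 (adjusted p = 8.33e-12) and 1.51 ± 0.17 with shB2 (adjusted p = 1.14e-17), which are 2.35-fold and 2.84-fold. After MC2580 it was 0.20 ± 0.26 (adjusted p = 1.00), with an interval of -0.30 to 0.71, below the estimate with either hairpin. The standard errors of KLF6 in the knockdown were 1.30 times the median of the 200 genes nearest in base mean. This was the highest such ratio among the members, the others lying between 0.919 and 1.18 in the knockdown.

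KLF3 (ENSG00000109787.13, chr4:38664197-38701517, plus strand), the CtBP-binding repressor, passed neither threshold. Its log2 fold change was 0.37 ± 0.14 with shA1 (adjusted p = 0.0366), 0.41 ± 0.14 with shB2 (adjusted p = 0.0141) and -0.25 ± 0.24 after MC2580. The hairpin estimates have intervals of 0.09 to 0.65 and 0.13 to 0.69. KLF3-AS1, an antisense transcript at the same locus, had a base mean of 12.6 against 1150 for KLF3 in the knockdown.

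The TGF-beta-inducible members moved by different amounts. KLF10 (ENSG00000155090.15) had implied normalised counts of 1613 in EV, 2498 in shA1 and 2114 in shB2. Its log2 fold change of 0.63 ± 0.12 with shA1 (adjusted p = 2.83e-06) and 0.39 ± 0.12 with shB2 (adjusted p = 0.00536) passed the adjusted p threshold but not the fold threshold. After MC2580 it was 0.00 ± 0.24, with an interval of -0.47 to 0.47. KLF11 (ENSG00000172059.11, chr2:10042849-10054836, plus strand) rose with shB2, by a log2 fold change of 1.36 ± 0.42 (adjusted p = 0.0049). With shA1 the estimate was 0.76 ± 0.42 (adjusted p = 0.188), and after MC2580 it was 0.32 ± 0.46. Implied normalised counts of KLF11 were 75.8 in EV, 128 in shA1 and 195 in shB2. The effect of the hairpins on KLF11 differed by 0.60 ± 0.59 (adjusted p = 0.733), so the call with shB2 alone does not show that they differ.

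Among the basic transcription element binding members, KLF13 (ENSG00000169926.11, chr15:31326835-31435665, plus strand), known for the control of CCL5 in T cells, had a log2 fold change of 0.62 ± 0.20 with shA1 (adjusted p = 0.00861). With shB2 it was 0.31 ± 0.20 (adjusted p = 0.249) and after MC2580 -0.10 ± 0.31. KLF9 (ENSG00000119138.4, chr9:70384604-70414657, minus strand), a glucocorticoid-responsive gene, gave -0.06 ± 0.24, -0.33 ± 0.24 and -0.03 ± 0.30 in the same order. KLF16 (ENSG00000129911.9, chr19:1852399-1863579, minus strand) gave -0.06 ± 0.13, -0.16 ± 0.13 and 0.22 ± 0.22. None of these passed the fold threshold. The interval of KLF16 with the hairpins stayed within -0.42 and 0.20, the narrowest of the members after KLF10, and 2 antisense long noncoding RNAs overlap the gene. The highest base mean available for these RNAs in the knockdown was 73.8, against 1359 for KLF16. Reads from stretches they share with KLF16 cannot be told apart either. When only the adjusted p was asked, 5 of 9 members were higher with each hairpin, KLF10 and KLF13 joining with shA1 and KLF10 with shB2. Of all genes tested, 11.3% with shA1 and 14.2% with shB2 were higher by that rule.

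Levels between genes were compared per kilobase of transcript. In EV, the implied normalised counts per kilobase were 553 for KLF10, 492 for KLF16, 204 for KLF6, 170 for KLF3 and 107 for KLF4. They were 81.1 for KLF9, 68.9 for KLF13, 18.8 for KLF11 and 7.61 for KLF2. KLF10 and KLF16 thus stood at the top and KLF2 at the bottom. With shB2, KLF6 stood second at 579 per kilobase, after KLF10 at 725 and ahead of KLF16 at 440, and KLF4 at 325 stood above KLF3 at 226. In DMSO the order was KLF16 at 611, KLF10 at 348, KLF3 at 167, KLF6 at 167 and KLF4 at 102. After MC2580, KLF4 at 395 stood second to KLF16 at 710. KLF2 was last in all 5 groups. Values per library were not used here, so the spread behind these levels is unknown and neighbours in the order cannot be said to differ.

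**Figure D2:**
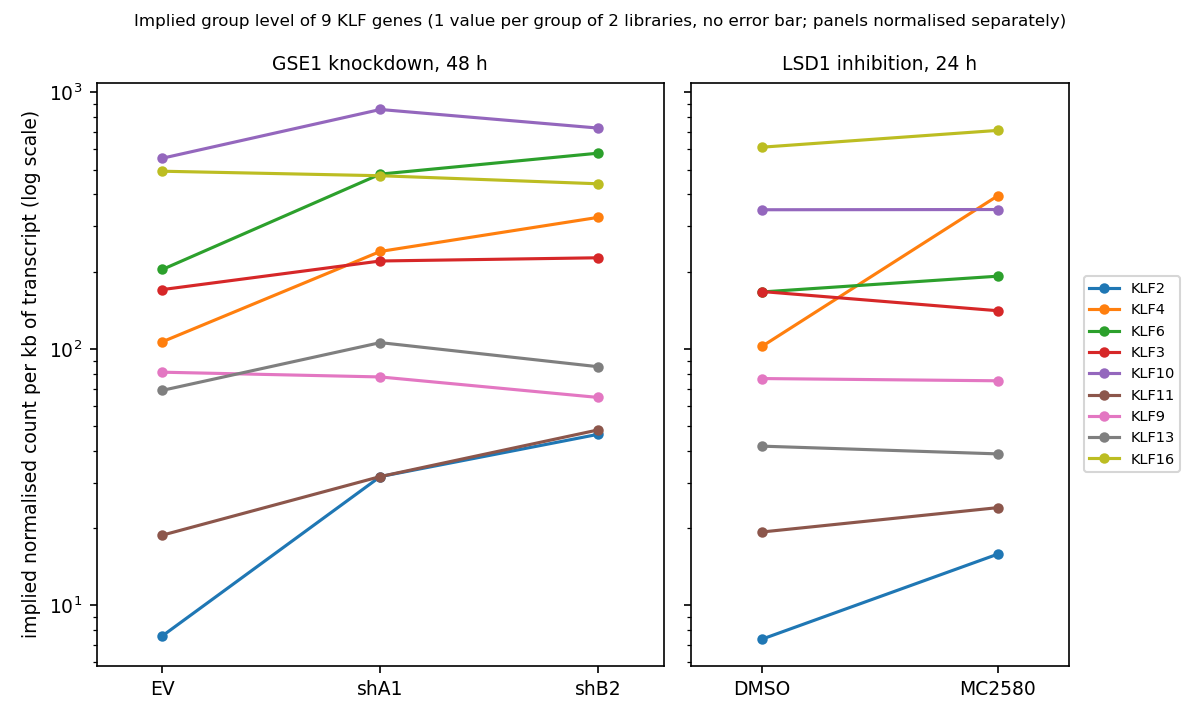
Implied normalised count per kilobase of transcript (log axis) of each member in EV, shA1 and shB2, and in DMSO and MC2580, with 1 value per group of 2 libraries and no error bars. KLF4 climbs from 107 to 325 between EV and shB2 and from 102 to 395 between DMSO and MC2580, while KLF16 stays between 440 and 492 in the knockdown.

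Effects were then compared with each other, by a Wald test on the difference of log2 fold changes adjusted over all genes. No member was called between the hairpins (0 of 9), while 0.828% of all genes were called higher and 2.20% lower in shB2 than in shA1. None of the members had an unadjusted p under 0.05, a cut at which no share of all genes was taken. The largest of these differences were 0.60 ± 0.59 for KLF11, 0.55 ± 0.67 for KLF2 and 0.44 ± 0.29 for KLF4. The shared EV libraries make this standard error an upper bound. The interval for KLF4 ran from -0.12 to 1.00 and that for KLF2 from -0.77 to 1.87, so an equal response was not shown either.

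Between MC2580 and shB2, KLF6 was the member called, with a difference of -1.30 ± 0.31 (adjusted p = 0.000725, 95% interval -1.90 to -0.70). Among all genes 2.47% were called lower and 2.03% higher in that comparison. Against shA1 the KLF6 difference was -1.03 ± 0.31 and missed the threshold (adjusted p = 0.0231). None of the 9 was called there, against 1.50% of all genes lower and 0.503% higher. An unadjusted p under 0.05 was found for 5 members. The share of all genes at that cut was not taken, so this count has nothing to be set against. Those 5 were KLF4, at 0.78 ± 0.31 (adjusted p = 0.13), and, in the other direction, KLF6, KLF3, KLF10 and KLF13. KLF4 exceeded shB2 by 0.34 ± 0.31 (adjusted p = 0.601), with an interval of -0.26 to 0.94. For KLF2 the differences were -0.96 ± 0.90 from shA1 and -1.51 ± 0.90 from shB2, with intervals that hold 0. The treatments also differ in time, agent and experiment, which cannot be told apart.

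**Figure D3:**
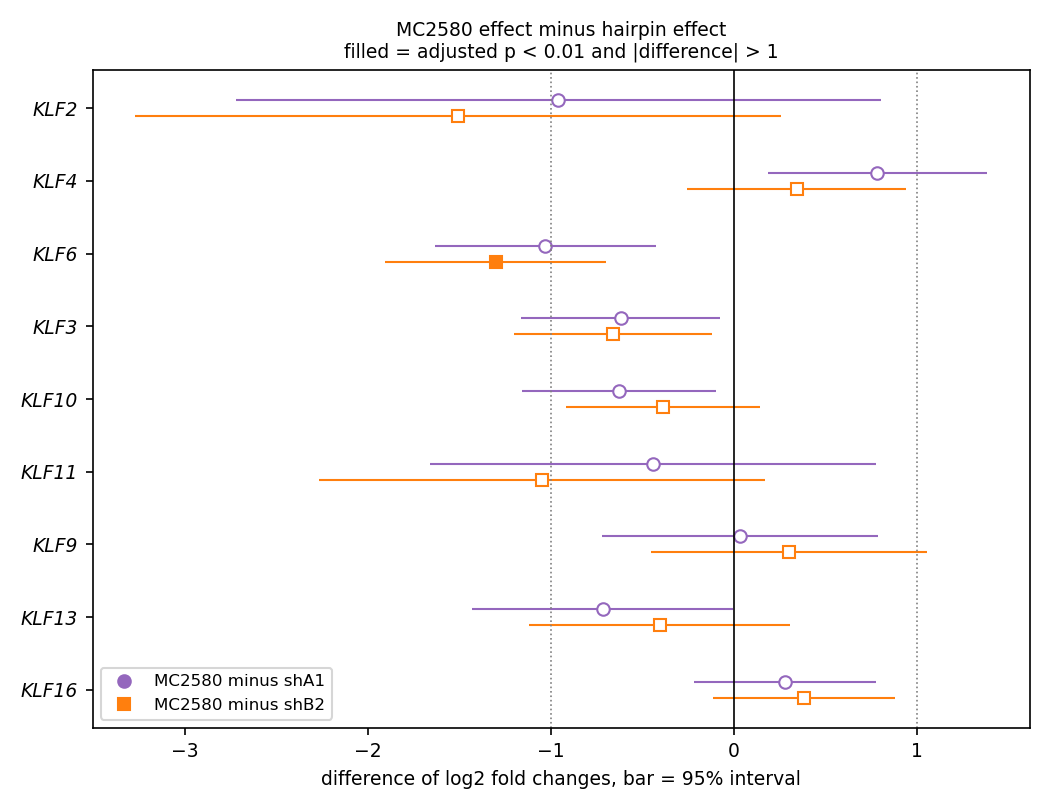
Difference between the log2 fold change after MC2580 and that with shA1 or shB2 for each member, with 95% intervals. Only KLF6 against shB2, at -1.30, passed both thresholds, and KLF4 is at 0.34 and 0.78.

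The genes whose 3 log2 fold changes lay nearest to a member were found among 10915 or, for KLF2, 10916 protein-coding genes of base mean 50 or more in both experiments, by Euclidean distance. For KLF4 they were RTN4RL2 (distance 0.16), with log2 fold changes of 1.22, 1.60 and 1.80 in the order shA1, shB2 and MC2580, and IQSEC2 (0.25), with 1.13, 1.50 and 1.73. For KLF6 they were CYB561 (0.11), with 1.32, 1.57 and 0.18, and SLA (0.12), which encodes a Src-like adaptor, with 1.32, 1.59 and 0.23. For KLF2 they were CD48 (0.27), a surface glycoprotein of leukocytes, with 2.23, 2.59 and 1.31, and ARHGEF3 (0.34), with 1.82, 2.39 and 1.15. KLF2 itself was below the base mean of 50 after MC2580, and its distances rest on a less precise value there.

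Of the other 9 KLF genes, 4 had an adjusted p with shA1 and after MC2580 and 5 with shB2, and none was called. At their low base means only large changes could pass. KLF7 was the only abundant gene among them, at a base mean of 329 in the knockdown, and its log2 fold change was 0.15 ± 0.60 with shA1 and 1.24 ± 0.60 with shB2 (adjusted p = 0.0988). The SP genes encode the nearest relatives of the KLF factors. Of 7 tested with each hairpin, 1 was called with shA1, SP4, at 1.17 ± 0.26 (adjusted p = 5.77e-05), and 0 with shB2, where SP4 gave 0.93 ± 0.26. None of the 8 tested after MC2580 was called. Over all tested genes, 4.32% were called higher with shA1, 5.58% with shB2 and 0.587% after MC2580.

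Of 8 corepressor genes whose products bind KLF factors (CtBP, SIN3, histone deacetylase and NCOR genes), none was called in any comparison. Their median log2 fold change was 0.11 with shA1, 0.26 with shB2 and 0.01 after MC2580. Over all tested genes, 4.32%, 5.58% and 0.587% were called higher in that order, and 0.786%, 2.91% and 0.0162% lower. CTBP2, a partner of KLF3, gave 0.53 ± 0.12 with shB2, and CTBP1 gave -0.39 ± 0.10 with shA1, both under the fold threshold.

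The kinase arm that runs through ERK5 (MAPK7) to MEF2 factors is known to induce KLF2 and KLF4 in other cells. Of its 8 genes, 0 were called with shA1 and 2 with shB2, both higher. The shares of all tested genes called higher were 4.32% with shA1, 5.58% with shB2 and 0.587% after MC2580. MAP3K3, a kinase at the head of the arm, rose by 1.22 ± 0.12 with shB2 (adjusted p = 7.41e-22), and gave 0.61 ± 0.12 with shA1. MEF2C rose with shB2 by 5.85 ± 1.80 (adjusted p = 0.0049), at a base mean of 8.50, so its size is poorly known. With shA1 MEF2C gave 5.23 ± 1.84 (adjusted p = 0.0203). MEF2A gave 0.66 ± 0.12 with shA1 and -0.67 ± 0.12 with shB2. By the adjusted p alone, 4 of the 8 were higher and 0 lower with shA1, and 3 higher and 1 lower with shB2. MAPK7 itself gave 0.04 ± 0.14 and 0.18 ± 0.14, and no gene of the arm was called after MC2580.

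Of 11 genes of the TGF-beta arm linked to KLF10 and KLF11, 2 rose with shA1, 3 with shB2 and none after MC2580. In the same order, 4.32%, 5.58% and 0.587% of all tested genes were called higher. None fell past both thresholds. TGFBR1, a receptor, rose by 1.34 ± 0.14 with shA1 (adjusted p = 5.69e-19) and by 1.05 ± 0.14 with shB2. TGFBR2, its partner receptor, rose by 1.44 ± 0.15 with shA1 and gave -0.05 ± 0.15 with shB2. The inhibitors SMAD7 and SKIL rose with shB2, by 2.02 ± 0.21 (adjusted p = 2.03e-19) and 1.04 ± 0.32 (adjusted p = 0.00515). With shA1 SMAD7 gave 0.69 ± 0.22 (adjusted p = 0.00781) and SKIL 0.75 ± 0.32. For SKIL the difference between the hairpins, 0.29 ± 0.46, was not called.

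Of 6 measured genes of the glucocorticoid arm linked to KLF9 and KLF13, 1 rose with each hairpin and none after MC2580. It was SGK1, a kinase, at 1.41 ± 0.24 with shA1 and 3.37 ± 0.24 with shB2 (adjusted p = 1.65e-43). Of 6 ubiquitin ligase genes that act on KLF proteins, WWP1 rose with shB2, by 1.10 ± 0.19 (adjusted p = 4.51e-08), and none was called with shA1 or after MC2580. Beside both lists, 4.32% of all tested genes were called higher with shA1, 5.58% with shB2 and 0.587% after MC2580.

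A further list held genes known from other cells as targets of KLF factors. Of those tested, 6 of 10 rose with shA1, 9 of 11 with shB2 and 2 of 11 after MC2580, and none fell past both thresholds. The shares of all tested genes called higher were 4.32%, 5.58% and 0.587%. This list was chosen with earlier results of these data known. The median log2 fold change of the target list was 2.02, 2.85 and 0.59. CDKN1A, the cyclin-dependent kinase inhibitor p21, rose by 2.43 ± 0.17 with shA1 and by 3.06 ± 0.17 with shB2. ITGAM, which encodes the myeloid integrin CD11b, rose by 2.95 ± 0.15, 2.99 ± 0.15 and, after MC2580, 2.07 ± 0.32 (adjusted p = 5.20e-08). HMOX1, a heme oxygenase, rose by 2.64 ± 0.23 with shA1 and by 2.31 ± 0.23 with shB2. NOS3, an endothelial target of KLF2, rose by 2.85 ± 0.49 with shB2 and by 2.25 ± 0.56 after MC2580 (adjusted p = 0.00747). With shA1 NOS3 gave 1.36 ± 0.50 (adjusted p = 0.0295). THBD, thrombomodulin, rose by 1.01 ± 0.19 with shB2 and gave -0.62 ± 0.19 with shA1. CCL5, the KLF13 target, gave 0.34 ± 0.15 with shA1 and -0.85 ± 0.15 with shB2. The counts say nothing of whether a KLF factor acts on these genes here, which was not tested.

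Of 11 tested monocyte and macrophage genes, 5 rose with shA1, 6 with shB2 and 4 after MC2580, and none fell past both thresholds. Among all genes tested, 4.32%, 5.58% and 0.587% were called higher in the same order. FCGR1A, on this list, gave -0.45 ± 0.32 with shA1 and -0.84 ± 0.32 with shB2. CSF1R gave -0.04 ± 0.20 with shB2, and CD14 gave -0.48 ± 0.96 after MC2580. ITGAX, encoding CD11c, rose by 2.67 ± 0.17 with shA1 and 2.52 ± 0.17 with shB2. IRF8, a monocyte transcription factor, rose in all 3 comparisons, by 1.53 ± 0.14, 2.48 ± 0.14 and 1.60 ± 0.25. LYZ, lysozyme, rose by 2.72 ± 0.22 after MC2580 (adjusted p = 2.76e-31), as did the chemokine receptor CCR2 by 1.59 ± 0.37. ITGAM and CD14 belong to both this list and the list of targets. The fall of PRTN3, and of CTSG or AZU1, came with the same hairpins, while CD33, another promyelocyte gene, did not fall. The part of a change in cell makeup or maturation in the values of the KLF members was not tested.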

How the data were processed

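MC280 in the sample titles was read as MC2580, the name in the treatment labels. NB4 mRNA-seq libraries (10, in 5 groups of 2) were made by the authors with TruSeq RNA v2, which does not mark strand. The authors mapped reads with STAR 2.7 to hg38, counted genes with RSEM and ran DESeq2 (version not given in the sources used here). No value per library was used. Base means, the deposited signal, are the authors' mean normalised counts. The log2 fold changes and standard errors, the score (Wald statistic), and the p-value columns, raw and Benjamini-Hochberg adjusted, are the authors' deposited DESeq2 estimates. The standard errors and p-values rest on the authors' model, fitted with 2 libraries a group, and are not a spread measured directly for each gene.

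From these values, Python 3.11.15 (scipy 1.17.1) computed 95% intervals, calls (adjusted p under 0.01, absolute log2 fold change over 1) and the difference tests. Group levels were implied from base means and folds, assuming groups of equal weight, and divided by MANE transcript length (GENCODE 44) where genes were compared. Of each list, up to 3 called genes per comparison and direction with the smallest adjusted p, and others for context chosen after their values were seen, are named. Some list genes are counted but not reported by name here. Members and lists were chosen with earlier results of these data known.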

Additional observations from a re-analysis of the deposited data

Results flagged for a closer look

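KLF6 was the member whose response differed between treatments: its log2 fold change after MC2580 was lower than that with shB2 by a difference of -1.301 (SE 0.31, adjusted p = 0.000725, Wald test on DESeq2 estimates). KLF6 was 1.51 ± 0.17 with shB2 and 0.20 ± 0.26 after MC2580. The difference from shA1 had the same sign, at -1.03 ± 0.31, and missed the threshold. Groups had 2 libraries, too few to look for a library that stands apart.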

How the results depend on the processing

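Main counts of members called were 3 with shA1, 4 with shB2, 1 after MC2580, 0 between the hairpins, 0 between MC2580 and shA1, and 1 between MC2580 and shB2. Without a fold threshold 5 were called with shA1, KLF10 and KLF13 in addition, and 5 with shB2. With a log2 fold change over 2, the counts were 1 with shA1 and 1 with shB2, KLF2 in each, 0 after MC2580 and 0 between MC2580 and shB2. With the test against a log2 value of 1, 0 members were called with shA1, with shB2, after MC2580 and between MC2580 and shB2. The p-values of that test were adjusted over all genes, with the threshold at 0.01. Some unadjusted 95% intervals of KLF2, KLF4 and KLF6 nevertheless lie above 2-fold. At an adjusted p under 0.05, 1 was called between MC2580 and shA1, KLF6. The remaining counts, among them those with the filter at a base mean of 50, all genes with a p-value, protein-coding genes only and centring on the median, stayed within 1.5 times the main count, and centring moved values by at most 0.02. No paired analysis was possible because the comparison tables carry no replicate. Leave-one-out fits, TMM scaling and edgeR need values per library and were not run. Precision limits KLF2 most, with a standard error of 0.76 after MC2580.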

Other observations

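Several genes around the KLF factors differed between the hairpins although the members themselves were not called. By the Wald test on the difference shB2 minus shA1, adjusted over all genes, MEF2A was lower by -1.33 ± 0.17 (adjusted p = 2.06e-12), with log2 fold changes of 0.66 with shA1 and -0.67 with shB2. TGFBR2 was lower by -1.48 ± 0.21, the monocyte receptor gene CSF1R by -1.36 ± 0.28, and NR3C1, the glucocorticoid receptor gene, by -1.36 ± 0.22. SMAD7 was higher by 1.32 ± 0.30, SGK1 by 1.96 ± 0.34, CDKN1C by 2.84 ± 0.63 and THBD by 1.63 ± 0.27. These genes were picked from the lists for passing this test, and what sets the hairpins apart was not tested.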
